A study of Mus musculus with 4 samples.

Results

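The retinoid receptors and the cellular retinoic acid (RA) binding proteins formed a set of 8 genes, chosen by symbol: Rara, Rarb and Rarg, which encode the RA receptors (RARs), Rxra, Rxrb and Rxrg, which encode the retinoid X receptors (RXRs), and Crabp1 and Crabp2, which encode the binding proteins (CRABPs). All 8 were found among 24771 features. Each of them had a mean level over the 4 samples high enough to be tested. Total RNA of PSC-derived SG placodes and of mouse submandibular glands (SMGs) at E12.5 was analysed by RNA-seq. Each group had 2 samples, named here placodes 1 and 2 and SMGs 1 and 2. PSC-derived SG placodes is the authors' name for aggregates of mouse pluripotent stem cells (PSCs) differentiated toward salivary gland (SG) placodes. The placodes, which the sample labels call iE-SGs, came from a single mouse embryonic stem cell line and were taken on day 10. They had received 2 ng/ml BMP4 on day 3, in medium with 2% growth factor reduced Matrigel added on day 1. RA at 1 μM was given with 25 ng/ml bFGF from day 4 to day 6. From day 6 the placodes were in fresh medium with 200 ng/ml FGF10, so RA was no longer being given on day 10. No sample of placodes grown without RA was among these 4, so RA, the other factors and the culture itself cannot be told apart as sources of a difference. The strain of the SMGs, their dissection and the number of embryos behind each sample are not given in the sources used here, nor is it said whether the samples of a group were separate cultures or litters. The p-values below therefore measure only the spread between these samples, which may be technical.

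RA is made inside cells from retinol in steps run by retinol and retinal dehydrogenases, and is broken down by enzymes of the CYP26 family. CRABPs are small cytosolic proteins that bind it. CRABP2 is known to hand RA to the receptors in the nucleus, while CRABP1 keeps it in the cytosol and is linked to its breakdown. A RAR pairs with a RXR on direct repeats of a short DNA half-site, and the pair represses its targets without RA and activates them with it. RXRs are also partners of many other nuclear receptors. In the developing head and neural tube RA sets the position of cells along the body axis, and Rarb, Crabp2 and Cyp26a1 are textbook genes that RA itself induces.

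The level of each gene was deposited as FPKM, the mapped fragments of a gene normalised to the length of its transcript and to the depth of mapping in each sample, which puts genes of different length on 1 scale. The summed FPKM was 361963 to 384773 per sample, and the read depth is unknown because no read counts were given. Of the 12 epithelial marker genes checked, all 12 reached an FPKM of 1 in both SMG samples and 7 did in both placode samples, where Krt5, Krt14 and Krt15 (named after their values were seen) were listed at 0. Of the 12, 8 were lower in the placodes and 2 higher, and Krt8 and Krt18 were called neither way. The 8 lower were Epcam, Cdh1, Krt5, Krt14, Krt15, Trp63, Pitx1 and Sox10. The 2 higher were Sox9 and Krt19. Sox9 had an FPKM of 42.1 and 43.0 in placodes 1 and 2 and of 9.31 and 7.655 in SMGs 1 and 2. Krt19 had 14.7 and 15.8 against 9.78 and 6.53. The summed FPKM of these 12 genes was 118 to 125 in the placodes and 628 to 664 in the SMGs. All 9 mesenchyme markers were lower in the placodes, with sums of 200.1 to 206 against 1914 to 1962. All 8 neural progenitor markers and all 8 neuronal markers were higher, with sums of 854 to 880.4 against 62 to 66.2 for progenitors and of 1214 to 1224 against 104 to 115 for neurons. All 5 endothelial markers were lower, with sums of 9.20 to 9.76 in the placodes and 101 to 107 in the SMGs. Of 6 erythroid markers, 3 had a listed value of 0 in placodes 1 and 2, and the list summed to 0.0258 and 0.255 in the placodes and to 2626 and 2644 in the SMGs. The 4 leukocyte markers summed to 2.45 and 2.95 in the placodes and to 8.63 and 10.7 in the SMGs, and the 5 skeletal muscle markers to 1.82 and 2.09 against 108 and 150. The part that this difference in cell make-up has in the results below was not tested. In such bulk samples, fewer cells of a type and less RNA per cell cannot be told apart.

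Every gene of the set had a value above 0 in all 4 samples, but the groups differed in the mixture. Crabp1 was 13.6-fold higher in the placodes and Rarg 8.87-fold lower, and the other 6 genes differed by less than 2-fold between the group means of FPKM. A test across all features (limma on log2(FPKM + 1), two-sided, Benjamini-Hochberg adjustment) gave an adjusted p below 0.05 for all 8 genes, 4 higher (Crabp1, Crabp2, Rara and Rarb) and 4 lower (Rarg, Rxra, Rxrb and Rxrg) in the placodes. This call was common, made for 76.2% of the 13193 features tested, 35.7% higher and 40.4% lower. Rxrg met the minimum mean FPKM of 1 for a test only through the SMGs, with a mean of 1.36 there and 0.718 in the placodes. The groups also did not overlap in FPKM for any of the 8 genes, which held for 88.4% of all features tested. A change of at least 2-fold past the same threshold was found for 1 gene in each direction, against 29.4% of all features tested, 14.1% higher and 15.2% lower. At an unadjusted p below 0.05, which all 8 genes also met, the share of all features was 77.8%. The median absolute log2 fold change was 0.71 over the set and 0.55 over all features tested, and the median with its sign was -0.05 in both. With 2 samples against 2, exact permutation of the samples gives no two-sided p below 0.33, so it was not used for single genes.

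**Figure D1:**
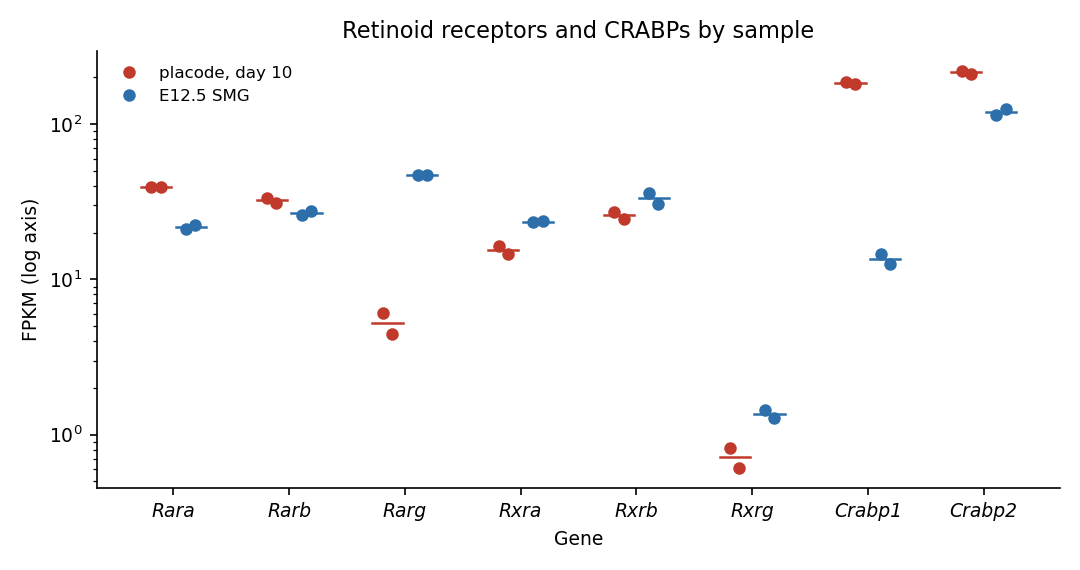
FPKM (log axis) of the 8 genes in each of the 4 samples, with points for samples and short lines for group means. The placode and SMG points do not overlap for any gene, and they lie farthest apart for Crabp1 (181 to 188 against 12.6 to 14.5) and Rarg (4.48 to 6.06 against 46.7 to 46.8).

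Among the RA binding proteins, Crabp1 showed the largest difference of the set. Crabp1 (ENSMUSG00000032291) lies on chromosome 9 of GRCm38 (chr9:54764748-54773110, plus strand). Its FPKM was 188 and 181 in placodes 1 and 2 and 14.5 and 12.6 in SMGs 1 and 2. Both placode samples thus lay far above both SMG samples, with ratios between single samples of 12.49 to 14.8. The log2 fold change was 3.67 (standard error 0.07, limma adjusted p = 2.67e-07), and 1.55% of the features tested had a higher one. In level, Crabp1 stood within the top 1.71% and 1.77% of the features tested in placodes 1 and 2, and below 40.4% and 44.7% of them in SMGs 1 and 2.
The 3 tested genes nearest to Crabp1 by Euclidean distance of log2(FPKM + 1) over the 4 samples were Stmn2 (distance 0.23), Nefm (0.30) and Cntfr (0.57). Stmn2 and Nefm encode a microtubule regulator and a neurofilament subunit of neurons, and Cntfr encodes the receptor subunit for ciliary neurotrophic factor. Stmn2 had an FPKM of 202 and 203 in placodes 1 and 2 and of 13.3 and 12.03 in SMGs 1 and 2. With 4 samples in 2 groups, such a distance compares levels and the group difference only. The neural progenitor and neuronal markers above were higher in the placodes, as Crabp1 was, and their part in its difference was not tested.

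The bases before the start of Crabp1 are shown because this gene moved most. In RefSeq's promoter table for GRCm38.p6, which gives 250 bases before and 50 after each start, 7 of the 8 genes had a total of 14 promoters, and Crabp2 had none. The stretch before the Crabp1 start (chr9:54764498-54764747, plus strand) overlaps no exon of GENCODE M21. Its GC content is 63.6%, and the capitals mark the GC box GGGCGG, the motif of Sp1 factors, on either strand.
Crabp1: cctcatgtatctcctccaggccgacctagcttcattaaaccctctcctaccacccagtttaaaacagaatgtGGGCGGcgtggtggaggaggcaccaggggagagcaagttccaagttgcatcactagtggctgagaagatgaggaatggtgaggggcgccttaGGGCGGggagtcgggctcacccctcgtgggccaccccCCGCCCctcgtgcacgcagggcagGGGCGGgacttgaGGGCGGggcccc
It held 5 such GC boxes. At least 1 was found in 35.7% of all 32851 promoters of the table. It held no RAR half-site on either strand, searched as the consensus AGGTCA, as its variant AGTTCA, as the form GGGTCA that begins with G, and as the form GGTTCA that differs by both changes, and 43.7% of all promoters held at least 1 of them. That says only that these letters are not in this window.

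Crabp2 was the most abundant gene of the set in every sample. Crabp2 (ENSMUSG00000004885) lies on chromosome 3 (chr3:87948666-87953376, plus strand). Its FPKM was 221 and 209.8 in placodes 1 and 2 and 114 and 125 in SMGs 1 and 2. Both placode samples were higher, by 1.67 to 1.94 times between single samples. This was a log2 fold change of 0.85 (standard error 0.06, limma adjusted p = 4.69e-05).
Together the binding proteins had a summed FPKM of 409 and 391 in the placodes and of 128 and 138 in the SMGs. Crabp1 made up 45.9% and 46.3% of this sum in placodes 1 and 2, against 11.3% and 9.17% in SMGs 1 and 2. The ratio of Crabp2 to Crabp1 was 1.18 and 1.16 in the placodes and 7.86 and 9.91 in the SMGs. In the SMGs, Crabp2 was thus by far the main CRABP transcript, whereas the placodes held both at nearly equal level. CRABP transcripts outweighed those of the 3 RARs by 5.19 and 5.20 times in placodes 1 and 2 and by 1.37 and 1.43 times in SMGs 1 and 2.

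Among the RARs, the placodes and the SMGs differed in which receptor led. In the placodes the order of FPKM was Rara, Rarb, Rarg, and in the SMGs it was Rarg, Rarb, Rara. The samples of neighbouring genes in these orders did not overlap in either group. The 3 genes summed to 78.8 and 75.2 in placodes 1 and 2 and to 94.0 and 96.8 in SMGs 1 and 2, so the sum was lower in both placode samples. These sums and shares are given as values and were not tested. They include Rarb, whose values are uncertain for a reason given below.

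Rarg (ENSMUSG00000001288), whose receptor RARγ is known from skin, cartilage and mesenchyme, lies on chromosome 15 (chr15:102234938-102257517, minus strand). Its FPKM was 6.06 and 4.48 in placodes 1 and 2 and 46.8 and 46.7 in SMGs 1 and 2. The SMG samples were nearly equal, and the placode samples were 7.71 to 10.4 times lower. The log2 fold change was -2.94 (standard error 0.12, limma adjusted p = 3.42e-06), and 1.8% of the features tested had a lower one. Rarg held 7.69% and 5.96% of the RAR sum in the placodes, against 49.8% and 48.3% in the SMGs. All 9 mesenchyme markers and 8 of the 12 epithelial markers were lower in the placodes, as Rarg was, while 2 epithelial markers were higher and 2 did not pass the test. Their part in the difference of Rarg was not tested.
As the gene that fell most, Rarg is shown with the bases before its most upstream listed start (chr15:102257523-102257772, minus strand), which overlap no GENCODE M21 exon and have a GC content of 74.4%. Capitals again mark GC boxes on either strand.
Rarg: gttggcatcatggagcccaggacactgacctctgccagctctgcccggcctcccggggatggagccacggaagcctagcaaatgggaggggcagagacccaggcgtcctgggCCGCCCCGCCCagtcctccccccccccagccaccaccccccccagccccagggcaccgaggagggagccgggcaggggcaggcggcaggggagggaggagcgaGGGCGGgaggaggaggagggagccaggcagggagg
This stretch held 3 GC boxes and 1 half-site, and no direct repeat with a spacer of 1, 2 or 5 bases was found in either Rarg promoter of the table.

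Rara (ENSMUSG00000037992) encodes RARα, the most widely expressed RAR, and lies on chromosome 11 (chr11:98927818-98974942, plus strand). Its FPKM was 39.3 and 39.6 in placodes 1 and 2 and 21.1 and 22.4 in SMGs 1 and 2. Both placode samples were 1.75 to 1.88 times higher than the SMG samples, with a log2 fold change of 0.83 (standard error 0.05, limma adjusted p = 2.51e-05). Of the RAR sum, Rara held 49.9% and 52.6% in the placodes and 22.4% and 23.2% in the SMGs. The ratio of Rara to Rarg was 6.49 and 8.83 in placodes 1 and 2 and 0.45 and 0.48 in SMGs 1 and 2, on opposite sides of 1.

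Rarb (ENSMUSG00000017491) encodes RARβ and is the member most directly tied to RA, since RA induces it through a repeat in its own promoter. It lies on chromosome 14 (chr14:16430839-16819156, minus strand). The FPKM of Rarb was 33.4 and 31.1 in placodes 1 and 2 and 26.1 and 27.6 in SMGs 1 and 2. The placode samples were higher by 1.13 to 1.28 times, a log2 fold change of 0.26 (standard error 0.06, 95% interval 0.11 to 0.41, limma adjusted p = 8.79e-03), the smallest difference of the set. The call was lost without placode sample 1 (adjusted p = 0.0710) and without SMG sample 1 (adjusted p = 0.0606), with log2 fold changes of 0.21 and 0.22.
Exons of Rarb share 1793 of their 5265 annotated bases, or 34.1%, with exons of Top2b on the opposite strand. Top2b, which encodes a DNA topoisomerase, had an FPKM of 58.6 and 59.5 in placodes 1 and 2 and 45.5 in both SMG samples, a log2 fold change of 0.37. The sources do not say that the counting used strand, and without strand the reads of both genes cannot be told apart there. The Rarb values are therefore uncertain, as are the orders, sums, shares and ratios that include Rarb. For Rara, Rarg, Rxra, Rxrb, Rxrg, Crabp1 and Crabp2 no exon base was shared with another annotated gene.

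Crabp2 had no listed RefSeq promoter, so it was not searched for repeats of the half-sites. Of the other 7 genes, only Rarb had a direct repeat of these half-sites 5 bases apart in a listed promoter. RAR and RXR pairs are best known to bind this spacing. Cyp26a1 was the other gene of the RA pathway with such a repeat, and both are printed to show how alike they are. The half-sites are in capitals, with the 5 spacer bases between them and 6 flanking bases on each side.
Rarb: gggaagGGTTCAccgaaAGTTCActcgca
Cyp26a1: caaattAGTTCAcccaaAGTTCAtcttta
The Rarb repeat (chr14:16575507-16575535 with flanks, GRCm38.p6, minus strand) lies 53 to 37 bases before the listed start on the strand of the gene. The Cyp26a1 repeat (chr19:37697770-37697798 with flanks, minus strand) lies 32 to 16 bases before its start, on the strand opposite to the gene. Annotated exons of the same genes in GENCODE M21 cover these bases. The second half-site is AGTTCA in both. The first is GGTTCA in Rarb and AGTTCA in Cyp26a1. Of the 32851 promoters, 0.0974% held this kind of repeat on either strand, against 0.222% for a spacer of 1 base and 0.268% for a spacer of 2. These promoters belonged to 31 genes, of which 5 were tested here, 1 higher (Rarb) and 4 lower in the placodes. Of all features tested, 35.7% were higher and 40.4% lower, and nothing about the repeat is read from these 5 genes. A match is a description of the sequence and not a measured binding site.

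**Figure D2:**
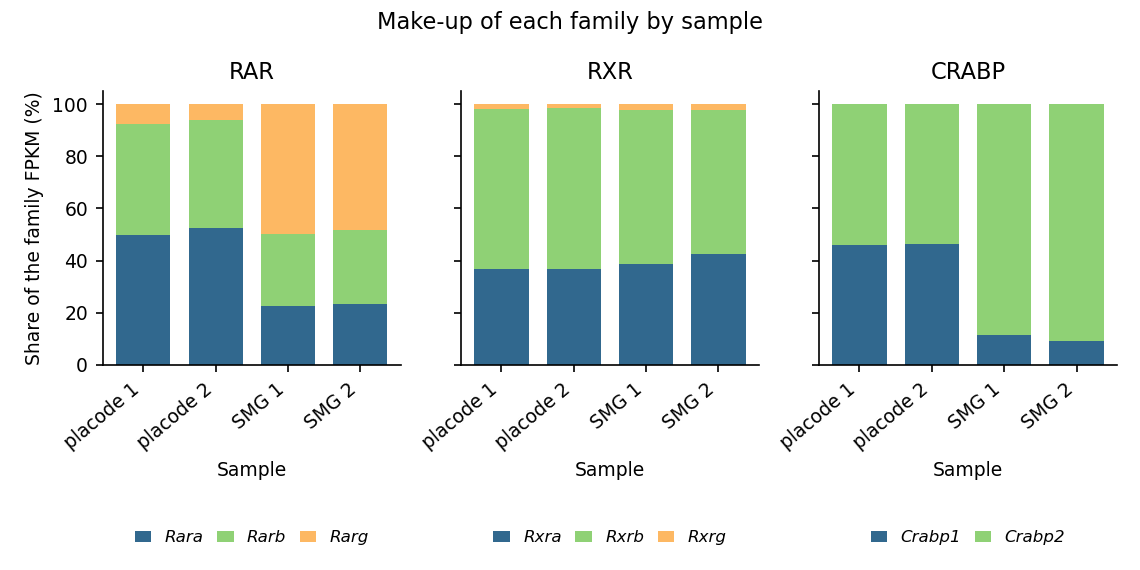
Share of each gene in the summed FPKM of its family (%, stacked bars) in each of the 4 samples, for RARs, RXRs and CRABPs. Rarg takes 48.3% to 49.8% of the RAR bars in the SMGs and 5.96% to 7.69% in the placodes, Crabp1 9.17% to 11.3% against 45.9% to 46.3% of the CRABP bars, and the RXR bars differ little.

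All 3 RXR genes were lower in the placodes, each by less than 2-fold between the group means of FPKM. Their summed FPKM was 44.4 and 39.6 in placodes 1 and 2 and 60.7 and 55.8 in SMGs 1 and 2. Rxrb was first, Rxra second and Rxrg last in each of the 4 samples. Rxrb held 61.4% and 61.8% of the sum in the placodes and 59.0% and 55.2% in the SMGs, and Rxra 36.7% in both placode samples against 38.6% and 42.6%.
Rxra (ENSMUSG00000015846) encodes RXRα, the main partner of RARs in many embryonic tissues, and lies on chromosome 2 (chr2:27676440-27762957, plus strand). The FPKM of Rxra was 16.3 and 14.5 in placodes 1 and 2 and 23.4 and 23.7 in SMGs 1 and 2. Its log2 fold change was -0.58 (standard error 0.07, limma adjusted p = 4.29e-04), which corresponds to placode values 1.44 to 1.64 times lower between single samples.
Rxrb (ENSMUSG00000039656) encodes the widely expressed RXRβ and lies on chromosome 17 (chr17:34031812-34038399, plus strand). The FPKM of Rxrb was 27.3 and 24.5 in placodes 1 and 2 and 35.8 and 30.8 in SMGs 1 and 2. The samples of each group differed from each other more than for any other RXR on the scale of FPKM, and the groups came close. The log2 fold change of Rxrb was -0.35 (standard error 0.09, 95% interval -0.57 to -0.13, limma adjusted p = 0.0120). It failed the threshold without placode sample 1 (-0.42, adjusted p = 0.0549), without placode sample 2 (-0.27, adjusted p = 0.133) and without SMG sample 1 (-0.24, adjusted p = 0.0839).
Rxrg (ENSMUSG00000015843) encodes RXRγ, known from muscle and parts of the nervous system, and lies on chromosome 1 (chr1:167598384-167639623, plus strand). It was the lowest gene of the set in every sample, with an FPKM of 0.825 and 0.611 in placodes 1 and 2 and of 1.44 and 1.27 in SMGs 1 and 2. Between 90.8% and 95.5% of the features tested had a higher level in the same sample. Its placode mean of 0.718 lay below the minimum of 1 for a test, which Rxrg met only through its SMG mean of 1.36. The log2 fold change of Rxrg was -0.46 (standard error 0.13, limma adjusted p = 0.0152). At a level this low the pseudocount set its size, which was -0.84 with a pseudocount of 0.1 and -0.92 with 0.01. Of the 5 skeletal muscle markers, the 4 tested were lower in the placodes, as Rxrg was, and all 8 neural progenitor and all 8 neuronal markers were higher. Their part in this difference was not tested.
The ratio of the RAR sum to the RXR sum was 1.77 and 1.90 in placodes 1 and 2 and 1.55 and 1.74 in SMGs 1 and 2, so that placode sample 1 and SMG sample 2 were close.

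Set side by side on the FPKM scale, the placodes ran from Crabp2 through Crabp1, Rara, Rarb, Rxrb, Rxra and Rarg to Rxrg. The SMGs ran from Crabp2 through Rarg, Rxrb, Rarb, Rxra, Rara and Crabp1 to Rxrg. No neighbours in either order overlapped in their samples. The closest were Rxra at 23.6 ± 0.201 (SD, n = 2) and Rara at 21.8 ± 0.931 (SD, n = 2) in the SMGs, whose nearest samples lay closer together than both Rara samples did.

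**Figure D3:**
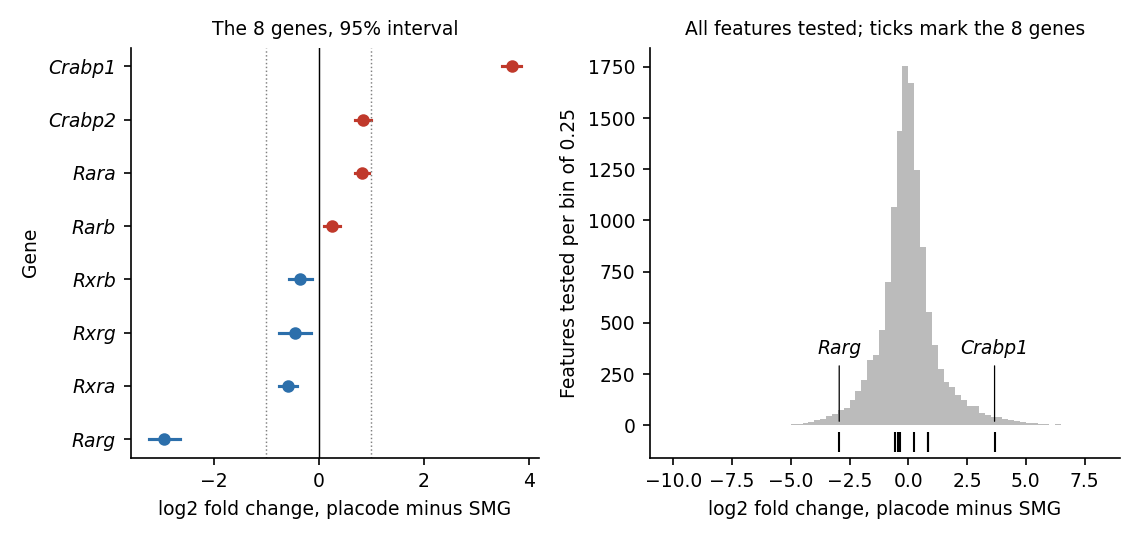
Left, log2 fold change (placode minus SMG) of each gene with its 95% interval, where dotted lines mark 2-fold. Right, histogram of the log2 fold changes of all 13193 features tested, with ticks under the axis for the 8 genes. Crabp1 (3.67) and Rarg (-2.94) lie in the tails, and the other 6 genes lie inside the 2-fold lines apart from the upper end of the Crabp2 interval, which reaches 1.00.

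The genes around the receptors were counted in 7 further lists of the pathway, to which Rarb and Crabp2 also belonged as RA-responsive genes. Of the 75 features in these lists, 49 were tested, 24 higher and 16 lower in the placodes, and 10 and 8 of those by at least 2-fold. The counts here and in each list below stand beside 35.7% of all features tested higher and 40.4% lower, and 14.1% and 15.2% by at least 2-fold, and nothing particular to a list is read from them.
Of the 8 genes of retinol uptake, carriage and storage, 3 were tested. Rbp4 (-1.86) and Stra6 (-0.71), which encode the carrier of retinol in blood and its membrane receptor, were lower on the log2 scale.
Of 11 genes of RA synthesis and breakdown, 9 were tested, 3 higher and 6 lower, and all 6 that fell did so by at least 2-fold. The retinal dehydrogenase Aldh1a2 had an FPKM of 3.61 and 2.88 in placodes 1 and 2 against 60.8 and 68.5, and the RA hydroxylase Cyp26b1 had 99.6 and 92.7 against 10.4 and 9.13. The ratio of Cyp26b1 to Aldh1a2 was 27.6 and 32.2 in the placodes and 0.172 and 0.133 in the SMGs.

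**Figure D4:**
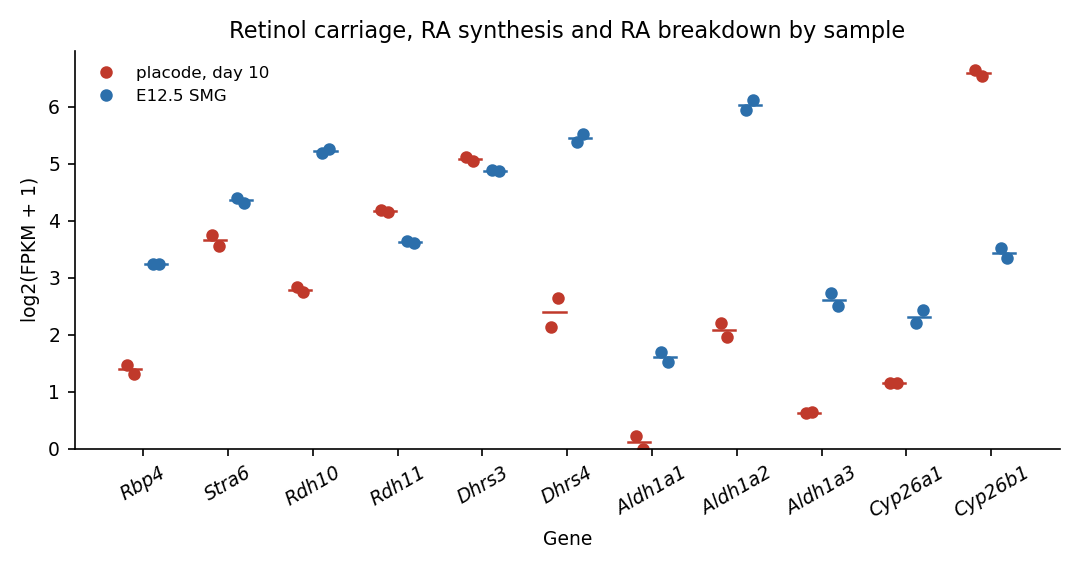
Level, as log2(FPKM + 1), of 11 tested genes of retinol carriage, RA synthesis and RA breakdown in each of the 4 samples, with short lines for group means. Cyp26b1 stands above the SMG points in the placodes, with a log2 fold change of 3.17, and Rdh10 (-2.44), Dhrs4 (-3.06), Aldh1a2 (-3.95) and Aldh1a3 (-1.99) stand below them.

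The fatty acid binding proteins belong to the same protein family as the CRABPs, and FABP5 is known as another carrier of RA to a nuclear receptor. Of 10 such genes 3 were tested, and all 3 were higher in the placodes. Fabp5 had an FPKM of 119 and 118 in placodes 1 and 2 and of 66.5 and 63.2 in SMGs 1 and 2. The ratio of Crabp2 to Fabp5 was 1.86 and 1.78 in the placodes and 1.71 and 1.98 in the SMGs, so the groups overlapped. Fabp7, a gene of radial glia that was also among the neural progenitor markers, differed by 4.71 and Fabp3 by 2.96 on the log2 scale.
Of 13 other receptors that pair with RXRs, 5 were tested, 1 higher (Thra, a thyroid hormone receptor, 0.74) and 2 lower (Nr4a2, -0.73, and Ppard, -0.34). None of these reached 2-fold on the log2(FPKM + 1) scale, and fewer were lower without placode sample 2. Nr1h2 differed by 0.03 (95% interval -0.13 to 0.20, limma adjusted p = 0.662). Among 6 orphan receptors that bind related DNA repeats, 2 were higher (Nr6a1, 2.16, and Nr2f6, 0.22) and 2 lower (Nr2f2, -1.85, and Nr2c1, -0.30). Fewer orphan receptors were lower without any 1 of the 4 samples, and fewer were higher without placode sample 1. In these fits the counts over all features tested dropped too.
The 14 coactivators and corepressors were all tested, and 6 were higher and 4 lower, none of them by 2-fold. The lowest log2 fold changes were those of Hdac3 (-0.67), a histone deacetylase of the corepressor complex, and Ncoa3 (-0.64), and the highest were those of Ncoa2 (0.37) and Med1 (0.36), which like Ncoa3 encode coactivators. Leaving out 1 sample at a time lowered the count of higher genes in every case, and it also lowered the count over all features tested.
Of 19 features of RA-responsive genes, 15 were tested, 11 higher and 2 lower, 7 and 1 of them by at least 2-fold, and the median log2 fold change was 0.85 against -0.05 over all features tested. The highest were Hox genes of axial position, Hoxb5 with an FPKM of 118 and 121 in placodes 1 and 2 and 0 and 0.0377 in SMGs 1 and 2, and 1 of the 2 features of Hoxd4 with 25.2 and 28.3 against 0 in both. The lowest was Cyp26a1, the RA hydroxylase with the repeat shown above, at 1.21 in both placode samples and 3.59 and 4.39 in SMGs 1 and 2 (log2 fold change -1.17, limma adjusted p = 1.88e-04), followed by Stra6. Of the pathway genes with a repeat in a listed promoter, Rarb had a log2 fold change of 0.26 and Cyp26a1 of -1.17. The Rarb value is uncertain because of the exons shared with Top2b, and nothing about the repeat is read from these genes. Crabp2 and Rarb, which the same list holds, were both higher, Rarb by the least of the set.

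**Figure D5:**
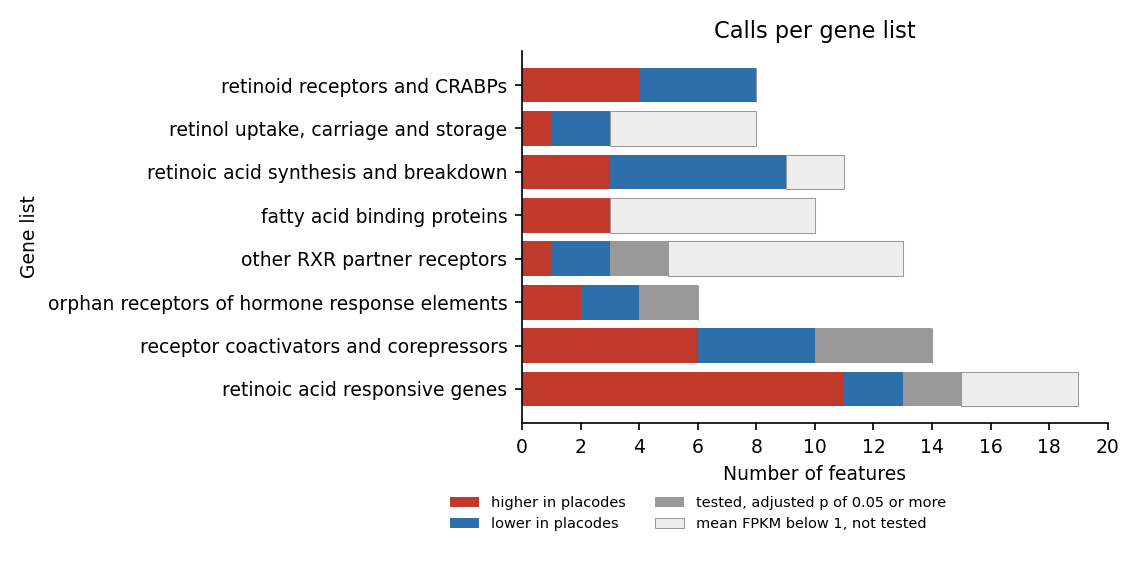
Number of features per gene list (horizontal bars) that were higher or lower in the placodes at a limma adjusted p below 0.05, tested without passing it, or not tested because their mean FPKM was below 1. The receptors and CRABPs held 4 higher and 4 lower, the RA-responsive genes 11 and 2, and the genes of RA synthesis and breakdown 3 and 6. Of all features tested, 35.7% were higher and 40.4% lower, and nothing particular to a list is read from these counts.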

How the data were processed

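The 4 RNA-seq samples, 2 of PSC-derived SG placodes and 2 of E12.5 SMGs, were grouped by their titles. The authors mapped paired-end reads with HISAT2 (version not given in the sources used here) and deposited 1 FPKM value per feature and sample. The submitters' processing notes name GRCm38 and GRCh38, and the samples are from mouse. The annotation, the strand setting and the tool behind the FPKM values are not given in the sources used here. The values hold no read counts, so depth, counting intervals and detection limits are not known.

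FPKM was transformed as log2(FPKM + 1), and limma 3.58.1 (R 4.3.3) was run on features whose mean FPKM reached 1 (eBayes with trend, group as the only term, two-sided, Benjamini-Hochberg adjustment over 13193 features). The fit was tested on simulated data. Coordinates and shared exons came from GENCODE M21 (GRCm38) by Ensembl identifier, and promoters from RefSeq (GRCm38.p6). Figures were drawn with Python 3.11.15 and matplotlib 3.10.9.

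The genes and lists were chosen with earlier results of these data known. Epithelial markers were named after their values were seen. The text names all 8 genes, genes of the retinol and of the RA synthesis and breakdown lists, the 2 highest and 2 lowest tested genes of each other pathway list, and the 3 genes nearest to the one that moved most. A gene of these lists was counted but is not reported here. Alternatives changed the pseudocount, the scaling, the minimum FPKM, the spread estimate, a replicate block and the samples used, 1 at a time.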

Additional observations from a re-analysis of the deposited data

How the results depend on the processing

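Each of the 8 genes kept its direction under all alternatives run, and, where it was tested, its adjusted p stayed below 0.05 under all that kept the 4 samples. Leaving out 1 sample at a time, which assumes that the lone sample left varies like the other group, gave Rarb log2 fold changes of 0.21 to 0.31 and Rxrb of -0.45 to -0.24, and both lost the call in the cases given above. At a mean FPKM of at least 5, Rxrg was not tested, 1219 features in place of 2011 and 5 in place of 8 pathway features were at least 2-fold lower, because fewer features were tested. There, 3 in place of 6 genes of RA synthesis and breakdown were lower. With no minimum, 4 in place of 2 other RXR partners were lower. The deviations of same-numbered samples from their group means had a correlation of -0.035 across features. This value cannot show whether those samples were handled together. With the number as a replicate block 4702 features were higher and 5341 lower, with 4 and 4 of the 8 genes. The median log2 fold change of all features moved from -0.05 to 0.01 at most between scalings. With 2 samples a group and no read counts, small differences such as those of Rarb and Rxrb are the least certain.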
